A study of Mus musculus with 18 samples.

Results

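Colon RNA of double-knockout mice that lack both Lao1 and Il4i1 (Lao1-/- Il4i1-/-, DKO) was set against colon RNA of wild-type mice (WT), with every animal given 2.5% dextran sulfate sodium (DSS) in the drinking water for 24 hours. The 3 DKO and 3 WT libraries were taken by their labels alone and make up 6 of the 18 libraries of the series. All mice were germ-free C57BL/6J males of 8 weeks, and RNA came from the whole colon, so the microbe-free state, the strain, the sex and the age were shared by every group. Values of 3 LAO1KO (Lao1-/-) libraries under DSS, and of 3 DKO and 3 WT libraries from mice on sterile water, are given beside the results. The labels do not say how the alleles were made, which exons they lack, whether the WT mice were littermates, or at what hour tissue was collected.

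The products of both genes are L-amino acid oxidases, which strip the amino group from amino acids and release hydrogen peroxide, ammonia and a keto acid. Il4i1 is secreted mainly by cells of the immune system and prefers phenylalanine and other aromatic amino acids, while Lao1 is known in mice from milk. DSS is a sulfated polysaccharide that injures the colonic epithelium, and the first day of exposure comes before overt colitis. The comparison asks how the colon of mice without the 2 oxidases differs from that of WT mice at this early time.

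The 6 libraries held 27219102 to 32547313 counts, and 18848 of 45777 genes had enough counts to be tested. Levels are given in CPM, counts relative to library size, after TMM scaling, a correction for differences in library composition, which allows comparison of 1 gene between libraries and not between genes. The mRNAs of the 13 protein genes on the mitochondrial genome took 14.3, 23.6 and 20.6% of counts in the DKO libraries, and 26.9, 26.1 and 44.9% in the WT libraries. WT library C stood apart in this share and had the lowest TMM factor, 0.625, against 0.874 to 1.07 in the other 5. Epithelial markers had a summed level of 23400 to 33700 CPM in DKO and 30100 to 34300 CPM in WT. Smooth muscle markers summed to 6860 to 11000 CPM in DKO and 5780 to 11000 CPM in WT, so the labelled tissue and its muscle layer were present throughout. Red cell markers summed to 118 to 207 CPM in DKO and 187 to 499 CPM in WT, with WT library C the highest. In such tissue RNA, fewer cells of a type and less RNA per cell cannot be told apart.

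Il4i1, when summed with an overlapping gene model, followed the genotype label, and Lao1 could not check that label. Il4i1 (GRCm38, chromosome 7, 44836288 to 44840809) overlaps the gene model Il4i1b, and their summed level was 0, 0.363 and 0 CPM in DKO, against 1.61, 0.922 and 2.94 CPM in WT. All 12 counts in DKO library B were assigned to Il4i1b, and in the sum the DKO libraries lay below every WT library. Most WT counts were also assigned to Il4i1b, at 34, 23 and 50, against 8, 2 and 0 for Il4i1. Il4i1 alone had 0 counts in each DKO library and in WT library C, so it overlapped (edgeR adjusted p = 0.649). The difference of -1.7 CPM in the sum had a 2-sided exact permutation p of 0.1, the smallest that 3 libraries against 3 allow, or 0.167 after adjustment over 5 such tests. Lao1 (chromosome 4, 118961967 to 118968910) had 6, 2 and 10 counts in the DKO libraries and 0, 4 and 0 in the WT libraries. A count of 0 allows up to 3 counts. DKO libraries A and C lay above that limit and every WT library lay below both, against the direction of the label, with an exact permutation p of 0.2 (0.25 after adjustment) on the CPM scale. Intervals and limits of this kind cover counting error only.

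A gene is called here when edgeR's quasi-likelihood test over all tested genes gave a Benjamini-Hochberg adjusted p under 0.05, and every adjusted p of a gene below comes from that test. Between DKO and WT under DSS 48 genes were called, which is 0.255% of those tested. Of these 21 were higher in DKO (0.111%) and 27 lower (0.143%), and 41 differed by more than 2-fold. The largest groups were genes on chromosome 7, which carries Il4i1, and near-identical copies of the ribosomal protein gene Rps2. The chromosome 7 genes included Slc1a5 of amino acid transport, Fah of tyrosine breakdown and Arntl of the circadian clock. Called outside chromosome 7 were Nfil3 of the clock, Cldn8 of the tight junction and Ndufs5 of the respiratory chain. Ndufs5 lies on chromosome 4, which carries Lao1. In none of the 48 did the 3 DKO and 3 WT values overlap, a condition that 21.5% of all tested genes met. At an unadjusted p under 0.05 there were 1826 genes, and the median log2 fold change of all tested genes was 0.00292. The labels call libraries A, B and C biological replicates, without saying more of the animals, and p-values measure the spread between them.

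A decrease with a known role in amino acid handling was that of Slc1a5, which encodes a sodium-dependent transporter of glutamine and other neutral amino acids. Slc1a5 (chromosome 7, 16781334 to 16798274) measured 72.6, 62.7 and 73.9 CPM in DKO, against 240, 245 and 212 CPM in WT. All 3 DKO libraries lay at about the same level, far below the lowest WT library, with a log2 fold change of -1.74 ± 0.19 (SE) and an edgeR adjusted p of 8.24e-05. The LAO1KO libraries under DSS held 283, 253 and 242 CPM, so Slc1a5 was low in DKO and not in LAO1KO mice (DKO against LAO1KO, log2 fold change -1.9, edgeR adjusted p = 4.8e-05). Under water it measured 64, 87.5 and 68.5 CPM in DKO and 241, 174 and 250 CPM in WT, a log2 fold change of -1.6 (edgeR adjusted p = 0.000258). Slc1a5 was the single called member among 25 tested genes of the amino acid response driven by Atf4, and that list's median log2 fold change was 0.04. Atf4 itself measured 195, 216 and 203 CPM in DKO and 237, 249 and 258 CPM in WT (edgeR adjusted p = 0.521).

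Other genes of chromosome 7 rose in DKO. Igsf23, an immunoglobulin superfamily gene, measured 28.2, 21.6 and 21.4 CPM in DKO and 2.8, 1.73 and 3.23 CPM in WT, a log2 fold change of 3.21 ± 0.26 (edgeR adjusted p = 3.3e-06). Hddc3 encodes a phosphohydrolase that removes a phosphate from NADPH in mammalian cells. It measured 35.8, 34.8 and 31.6 CPM in DKO and 5.87, 6.93 and 7.46 CPM in WT (log2 fold change 2.34 ± 0.15, edgeR adjusted p = 1.51e-07). Both genes were separated widely, and both stood near the WT level in the LAO1KO libraries, with means of 4.02 ± 1.13 CPM for Igsf23 and 7.56 ± 0.845 CPM for Hddc3 (SD, n = 3). Fah, the last enzyme of tyrosine breakdown, measured 20.7, 18.3 and 19.4 CPM in DKO and 7.03, 6.64 and 6.64 CPM in WT (log2 fold change 1.52 ± 0.23, edgeR adjusted p = 0.0037). Fah averaged 8.81 ± 2.9 CPM in LAO1KO libraries, and DKO against LAO1KO did not pass for it (log2 fold change 1.14 ± 0.23, edgeR adjusted p = 0.108). It was the only called gene among 14 tested genes of tryptophan and tyrosine breakdown, whose median log2 fold change was 0.05. The 2 members of that list with the highest levels were Wars (edgeR adjusted p = 0.82) and Tat, the first enzyme of the same tyrosine pathway (edgeR adjusted p = 0.911).

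**Figure D1:**
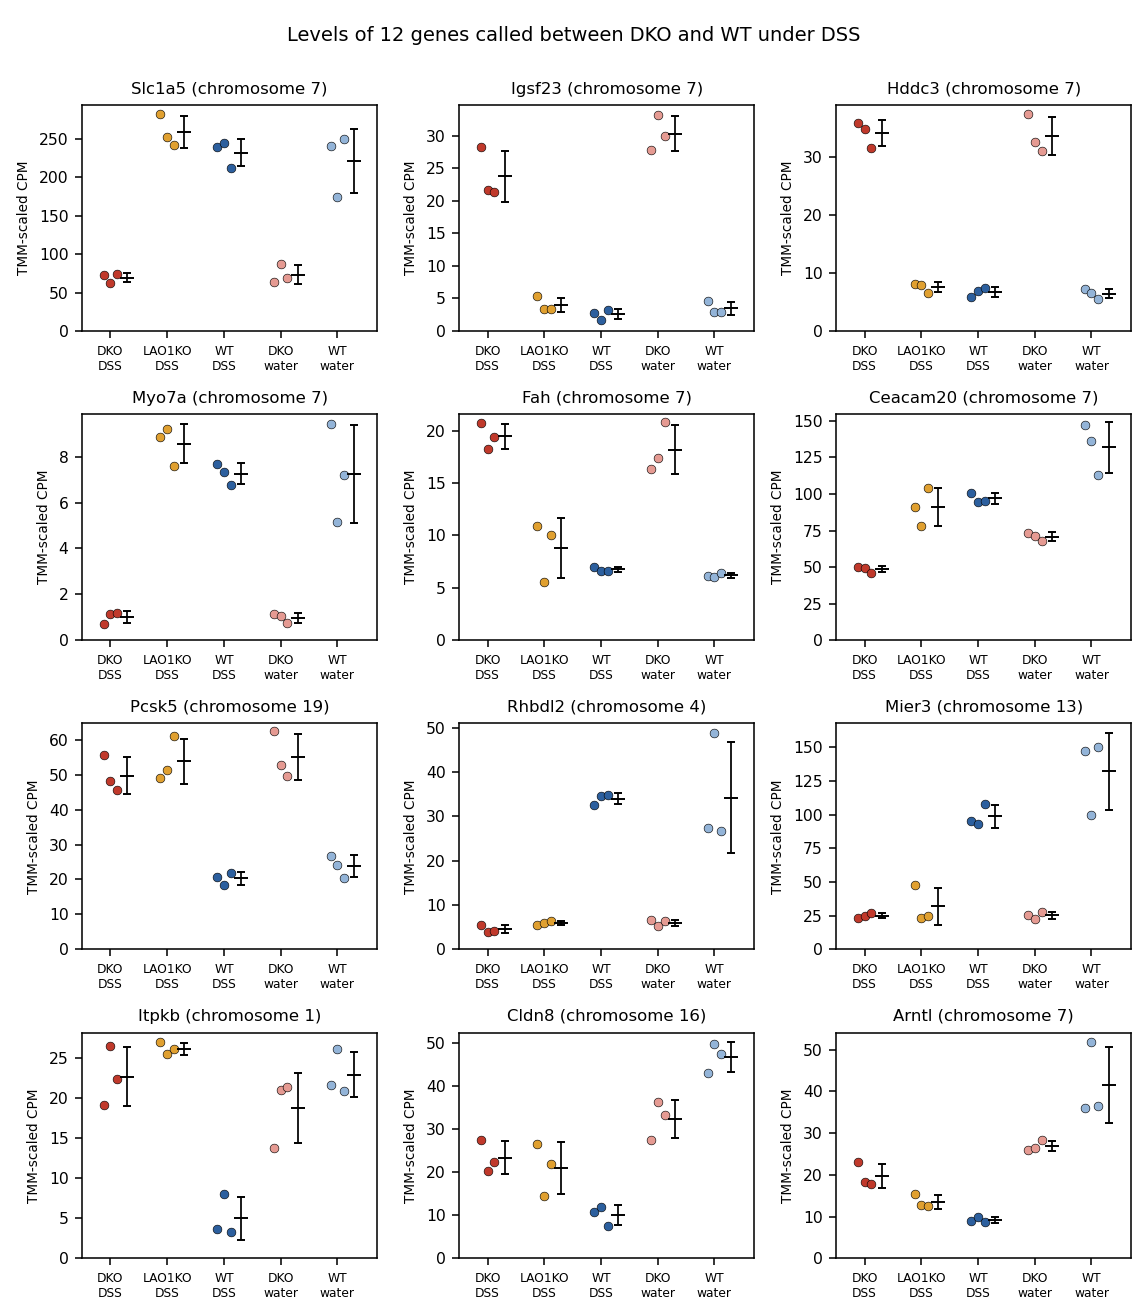
TMM-scaled CPM (vertical axis, from 0) of 12 called genes in each library, with DKO, LAO1KO and WT under DSS and DKO and WT under water from left to right; points are libraries A, B and C, and the bar beside them is the mean with 1 SD. Slc1a5, Igsf23, Hddc3, Myo7a and Ceacam20 in LAO1KO stand with WT, Pcsk5, Rhbdl2 and Mier3 stand with DKO, and Itpkb in WT under DSS (3.65, 8.04 and 3.29 CPM) lies below every other group.

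A group of neighbouring chromosome 7 genes fell. Ceacam20, an adhesion protein of the intestinal brush border, measured 50.4, 49.4 and 46.2 CPM in DKO and 101, 94.8 and 95.1 CPM in WT (log2 fold change -0.99 ± 0.15, edgeR adjusted p = 0.00458). A close neighbour, Nlrp9b, encodes an inflammasome sensor of viral RNA in mouse intestinal epithelium. It measured 24.2, 33 and 26.4 CPM in DKO and 74.4, 70 and 74.5 CPM in WT (log2 fold change -1.39 ± 0.20, edgeR adjusted p = 0.00256). DKO was the lower group in both, with no overlap, and the LAO1KO means were 91.2 ± 13.2 CPM for Ceacam20 and 62.1 ± 13.8 CPM for Nlrp9b (SD, n = 3). Igsf23, which rose, starts at 19937305, between the fallen genes Ccdc61 at 18890883 and Ceacam20 at 19965352, so genes that moved in opposite directions lay among each other. Ccdc61, a centrosomal protein gene, averaged 10.4 ± 1.36 CPM in DKO and 20.4 ± 0.791 CPM in WT (SD, n = 3 each, edgeR adjusted p = 0.000724). Myo7a, an unconventional myosin best known from the sensory hair cells of the ear, measured 0.726, 1.12 and 1.18 CPM in DKO and 7.68, 7.34 and 6.76 CPM in WT (log2 fold change -2.84 ± 0.27, edgeR adjusted p = 2.18e-05). Myo7a lies 53.2 Mb beyond Il4i1, and in LAO1KO libraries it measured 8.87, 9.21 and 7.6 CPM, again with WT.

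Near Il4i1 itself, 3 of the 103 tested genes with a start within 1 Mb were called, or 2.91%. Tbc1d17, whose protein turns off Rab GTPases, begins at 44840776, before the end of Il4i1 at 44840809, so reads over the shared bases are uncertain. It measured 15.5, 13.3 and 13.3 CPM in DKO, against 36.2, 37.5 and 36.9 CPM in WT (log2 fold change -1.39 ± 0.24, edgeR adjusted p = 0.0115). Ntn5, a member of the netrin family of guidance proteins, starts 0.848 Mb away and averaged 5.95 ± 1.16 CPM in DKO and 0.853 ± 0.641 CPM in WT (SD, n = 3 each, edgeR adjusted p = 0.0207). The third, the long non-coding RNA 0610005C13Rik, averaged 12.7 ± 0.422 CPM in DKO and 50.9 ± 11.8 CPM in WT (edgeR adjusted p = 3.82e-05). Of these 3, only 0610005C13Rik passed without each DSS library in turn. Tbc1d17 passed in none of those 6 fits (edgeR adjusted p 0.0518 to 0.109). Ntn5 was lost without DKO library A (0.0935), B (0.0513) or C (0.093) or WT library A (0.0789), all edgeR adjusted p-values.

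Calls were more frequent along chromosome 7 as a whole than elsewhere. They numbered 23 of 1394 tested genes on chromosome 7 (1.65%), 12 higher and 11 lower in DKO, over a span of 106 Mb. Chromosome 4, which carries Lao1, held 5 of 1159 (0.431%), and the other chromosomes together held 18 of 15787 (0.114%). Within 10 Mb of Il4i1 lay the same 3 calls as within 1 Mb, now among 208 genes (1.44%), within 25 Mb lay 11 among 498 (2.21%), and within 50 Mb lay 21 among 829 (2.53%). Near Lao1, 0 of 31 genes within 1 Mb and 3 of 145 within 5 Mb (2.07%) were called, namely Gm29891, Ndufs5 and Rhbdl2. The same 3 were the calls among 573 genes within 25 Mb (0.524%) and among 794 within 50 Mb (0.378%). The labels do not say how the alleles were made or bred. Effects of the Il4i1 allele and of any chromosome 7 DNA inherited with it cannot be told apart in these libraries. The same holds for Lao1 and chromosome 4.

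**Figure D2:**
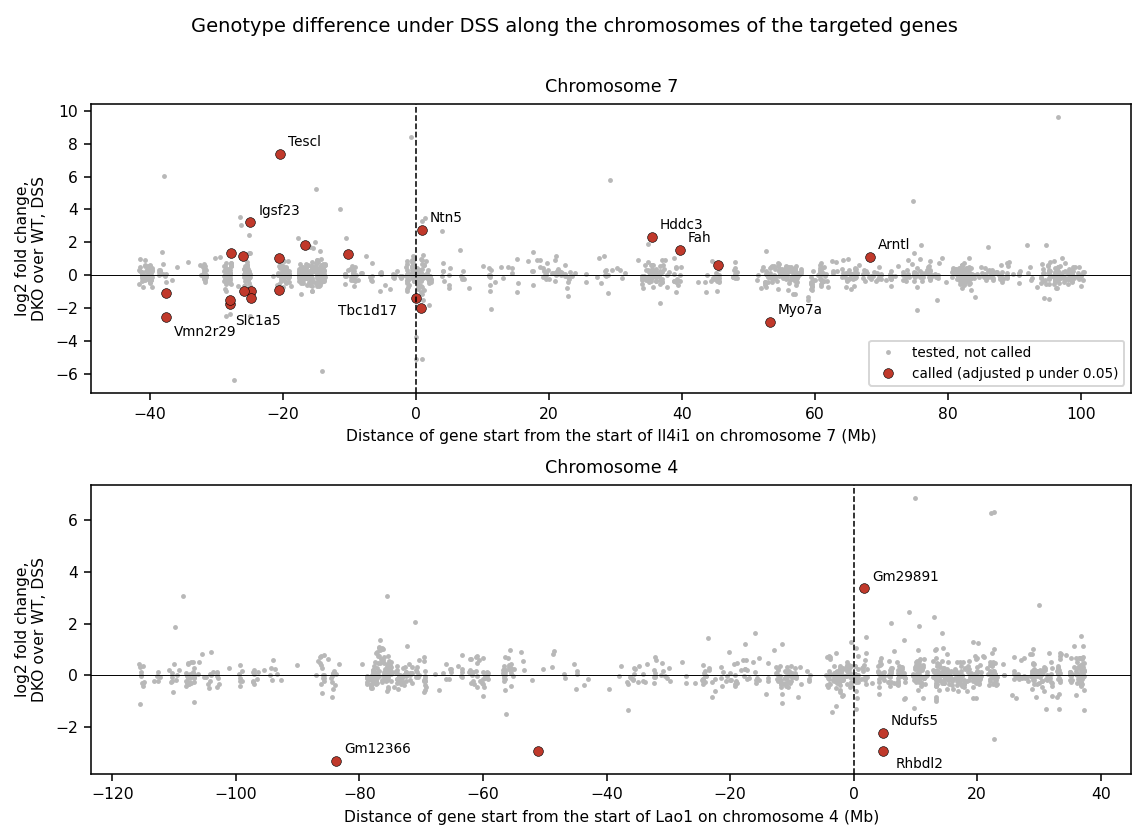
Log2 fold change of DKO over WT under DSS (vertical axis) against the distance in Mb of each tested gene's start from the start of Il4i1 on chromosome 7 (top) and of Lao1 on chromosome 4 (bottom). Red points are called genes and grey points the other tested genes; 23 red points spread over 106 Mb of chromosome 7 in both directions, and the fitted value of Tescl, at 0 counts in every WT library, is no measure of size.

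The comparison of DKO with LAO1KO under DSS, which shares the DKO libraries, called 12 genes (0.0637% of those tested), 4 higher (0.0212%) and 8 lower (0.0424%) in DKO, and all 12 lay on chromosome 7. They were Igsf23, Hddc3, Mill2, Zfp61, Ccdc61, Ceacam20, Zfp772, Nlrp9b, Slc1a5, 0610005C13Rik, Vmn2r29 and Myo7a. Mill2, an MHC class I-like gene, averaged 21.5 ± 2.79 CPM in DKO, 11.5 ± 1.14 CPM in LAO1KO and 9.6 ± 1.63 CPM in WT (SD, n = 3 each). The zinc finger genes split, with Zfp61 at 11.8 ± 1.48 CPM in DKO and 5.65 ± 0.335 CPM in WT, and Zfp772 at 3.14 ± 0.448 CPM in DKO and 6.71 ± 0.147 CPM in WT. Zfp61 was lost without DKO library B or C or any of the WT libraries (edgeR adjusted p up to 0.129). Zfp772 was lost without DKO library A (0.0745) or C (0.0869), both edgeR adjusted p-values. Vmn2r29, a vomeronasal receptor gene that shares identical sequence with Gm45844 over 59.2% of its transcript, averaged 0.475 ± 0.0869 CPM in DKO and 2.79 ± 0.56 CPM in WT. Its reads may therefore be divided between the 2 genes.

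In a second set of called genes the LAO1KO libraries lay near DKO and apart from WT. Pcsk5, a protease that activates precursor proteins in the secretory pathway, measured 55.7, 48.1 and 45.5 CPM in DKO, 49, 51.4 and 61.2 CPM in LAO1KO and 20.8, 18.3 and 22 CPM in WT. Its log2 fold change of DKO over WT was 1.29 ± 0.14 (edgeR adjusted p = 6.54e-05), and that of DKO over LAO1KO was -0.11 ± 0.13. Rhbdl2, a rhomboid protease of the cell membrane, measured 5.58, 3.9 and 4.11 CPM in DKO, 5.43, 6.02 and 6.46 CPM in LAO1KO and 32.5, 34.5 and 34.9 CPM in WT (DKO over WT, log2 fold change -2.91 ± 0.27, edgeR adjusted p = 2.17e-05). Mier3, a transcriptional co-repressor, measured 23.5, 24.5 and 27 CPM in DKO and 94.9, 92.9 and 108 CPM in WT (log2 fold change -1.98 ± 0.22, edgeR adjusted p = 0.000171). In LAO1KO it was at 23.6 and 24.4 CPM in 2 libraries and at 47.9 CPM in library A, which lay between the genotypes. Rhbdl2 lies 4.83 Mb from Lao1 on chromosome 4, whereas Pcsk5 is on chromosome 19 and Mier3 on chromosome 13. Under water all 3 differed in the same direction, with log2 fold changes of 1.21 for Pcsk5, -2.5 for Rhbdl2 and -2.38 for Mier3 (edgeR adjusted p 0.000144, 9.98e-05 and 2.44e-05).

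Counts of Ndufs5 and its pseudogene moved in opposite directions. Ndufs5, a small subunit of respiratory complex I, measured 26.5, 32.2 and 25.3 CPM in DKO and 129, 113 and 152 CPM in WT (log2 fold change -2.23 ± 0.29, edgeR adjusted p = 0.00129). Ndufs5-ps, a pseudogene on chromosome 16, measured 130, 114 and 118 CPM in DKO and 6.56, 5.72 and 8.29 CPM in WT (log2 fold change 4.14 ± 0.22, edgeR adjusted p = 9.61e-09). Each was separated without overlap, while the sum of the 2 was 156, 146 and 143 CPM in DKO and 135, 119 and 160 CPM in WT, with overlapping values. Under water the sum was higher in DKO without overlap, at 170, 127 and 131 CPM in DKO and 89.6, 114 and 96 CPM in WT. Under DSS the sums averaged 148 ± 6.77 CPM in DKO and 138 ± 20.6 CPM in WT (SD, n = 3 each, 2-sided exact permutation p = 0.5). LAO1KO libraries averaged 27.6 ± 4.23 CPM for Ndufs5 and 126 ± 20.6 CPM for Ndufs5-ps. How reads that match both were assigned is not given in the sources used here, so neither difference can be read as a change of complex I mRNA. Ndufs5 was the only called gene among 42 tested nuclear subunits of the respiratory chain.

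A larger set of the same kind consisted of copies of Rps2, the gene of a protein of the small ribosomal subunit. Of the 27 genes lower in DKO, 10 were Rps2-like copies, 9 recognised by sequence with 95.8 to 99.4% identity to Rps2 and Rps2-ps8 by its symbol alone. They lay on 9 chromosomes and their log2 fold changes ran from -4.28 to -1.8. Each of the 9 matched 50 to 73 other genes over at least 80% of its length. How many of those genes were tested was not counted. The 10 were picked because they were called lower, so their sum does not describe all copies of Rps2. Summed over the 10, the level was 38.7, 36.4 and 32.1 CPM in DKO, against 223.3, 172.2 and 190.7 CPM in WT, and 29.5, 36.9 and 38.9 CPM in LAO1KO. Rps2 itself was higher in all 3 DKO libraries, at 854, 861 and 787 CPM against 754, 593 and 618 CPM in WT, without passing the test (log2 fold change 0.35 ± 0.19, edgeR adjusted p = 0.558). Under water the copies summed to 36.7, 28.8 and 18.4 CPM in DKO, and to 135.2, 43.4 and 122 CPM in WT, where library B lay near the DKO values. Rps2 itself was not higher in DKO under water, at 763, 719 and 582 CPM in DKO and 815, 1030 and 701 CPM in WT. These values overlapped (log2 fold change -0.3 ± 0.19, edgeR adjusted p = 0.432). Rps2-ps10, Rps2-ps13, Gm12366 and Rps2-ps8 passed without each DSS library in turn. Rps2-ps6, Gm6139 and Gm6311 were lost without any 1 DKO library (edgeR adjusted p up to 0.0874). Lost as well were Gm6576 without those or WT library A, Gm7432 without those or WT library A or C, and Gm11249 without any of the 6 (edgeR adjusted p up to 0.166 over these copies).

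The closeness of the copies can be seen in their first coding bases, which are shown because reads from such stretches can be assigned to several genes. Each line gives coding bases 1 to 90 of the transcript in the GENCODE annotation of GRCm38, 5′ to 3′. In Rps2, on chromosome 17, capitals mark the 9 positions at which any of the 3 copies below differs, and in a copy they mark its own differences from Rps2.
Rps2: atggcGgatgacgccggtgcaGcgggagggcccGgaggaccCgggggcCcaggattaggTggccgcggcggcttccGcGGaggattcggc
Gm6139: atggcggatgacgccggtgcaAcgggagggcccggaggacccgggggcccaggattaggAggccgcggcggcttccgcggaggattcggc
Gm6311: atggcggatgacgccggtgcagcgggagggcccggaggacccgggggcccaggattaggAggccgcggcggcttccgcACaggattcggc
Gm12366: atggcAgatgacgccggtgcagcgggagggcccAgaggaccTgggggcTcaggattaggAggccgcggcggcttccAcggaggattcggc
Over the aligned coding sequence Gm6139 (chromosome 5) differed from Rps2 at 10 of 882 bases, Gm6311 (chromosome 13) at 9 of 878 and Gm12366 (chromosome 4) at 10 of 873. Gm6139 measured 4.15, 4.11 and 3.46 CPM in DKO and 30.6, 24.2 and 26.9 CPM in WT. Gm12366 measured 1.28, 1.33 and 1.06 CPM in DKO and 13.8, 9.81 and 12.2 CPM in WT.

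Glo1 and its copy behaved alike in direction. Glo1, which detoxifies methylglyoxal, a by-product of glycolysis, measured 83.3, 78.6 and 77.6 CPM in DKO and 147, 144 and 148 CPM in WT (log2 fold change -0.87 ± 0.16, edgeR adjusted p = 0.0149). The pseudogene Glo1-ps, listed in the table as Gm13443, measured 0.349, 0.242 and 0.118 CPM in DKO and 3.26, 3.95 and 6.29 CPM in WT (log2 fold change -4.22 ± 0.80, edgeR adjusted p = 0.0301). Neither overlapped between the genotypes, but Glo1 was lost in each of the 6 fits without a DSS library (edgeR adjusted p 0.0527 to 0.117), as was Gm13443 (0.0527 to 0.25). LAO1KO libraries lay between the genotypes, at 108 ± 3.03 CPM for Glo1 and 1.57 ± 1.21 CPM for Gm13443 (SD, n = 3). The coding sequences, with Glo1 on chromosome 17 and Gm13443 on chromosome 2, differ at 3 of 555 bases, and reads may be divided between them.

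**Figure D3:**
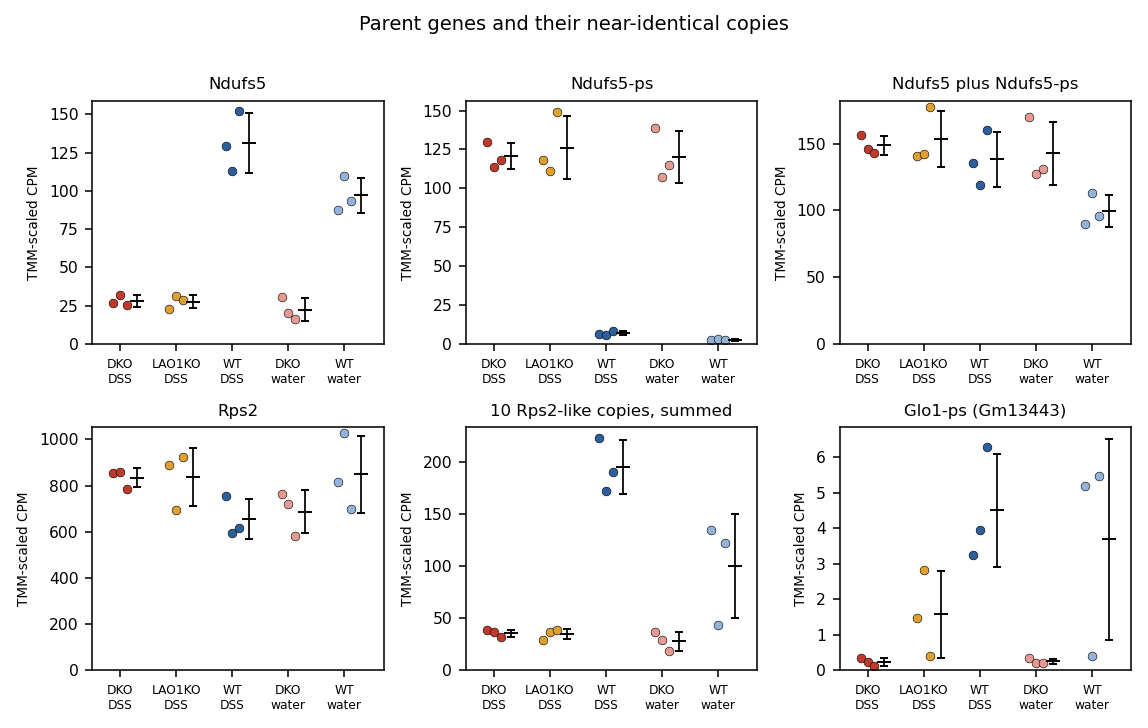
TMM-scaled CPM (vertical axis, from 0) of Ndufs5, Ndufs5-ps and their sum, and of Rps2, its 10 called copies summed and Glo1-ps, in DKO, LAO1KO and WT libraries under DSS and DKO and WT libraries under water; points are libraries and bars are means with 1 SD. Ndufs5 and Ndufs5-ps separate the genotypes in opposite directions while their sums overlap under DSS, at 143 to 156 CPM in DKO and 119 to 160 CPM in WT, and not under water.

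Most genes called under DSS differed in the same direction without DSS. In mice on water 117 genes were called between DKO and WT (0.621% of those tested), 70 higher (0.371%) and 47 lower (0.249%) in DKO. The 2 comparisons share no library, and 30 genes were called in both with the same sign, which is 62.5% of the DSS calls and 25.6% of the water calls. Of the 48 DSS calls, 42 had the same sign under water. The interaction, which uses the libraries of both comparisons to test whether the DKO to WT difference itself changed with DSS, called 11 genes (0.0584%), 6 in the direction of a higher DKO under DSS (0.0318%) and 5 in that of a lower (0.0265%), with 2903 at an unadjusted p under 0.05. For Slc1a5 it was -0.14 ± 0.26, for Igsf23 0.11 ± 0.34, for Hddc3 -0.04 ± 0.21 and for Myo7a 0.04 ± 0.37 on the log2 scale (SE). The interaction count fell to 0 in 8 of 12 fits without 1 of these libraries, among them each fit without a DKO library under DSS, so its calls rest on few libraries.

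**Figure D4:**
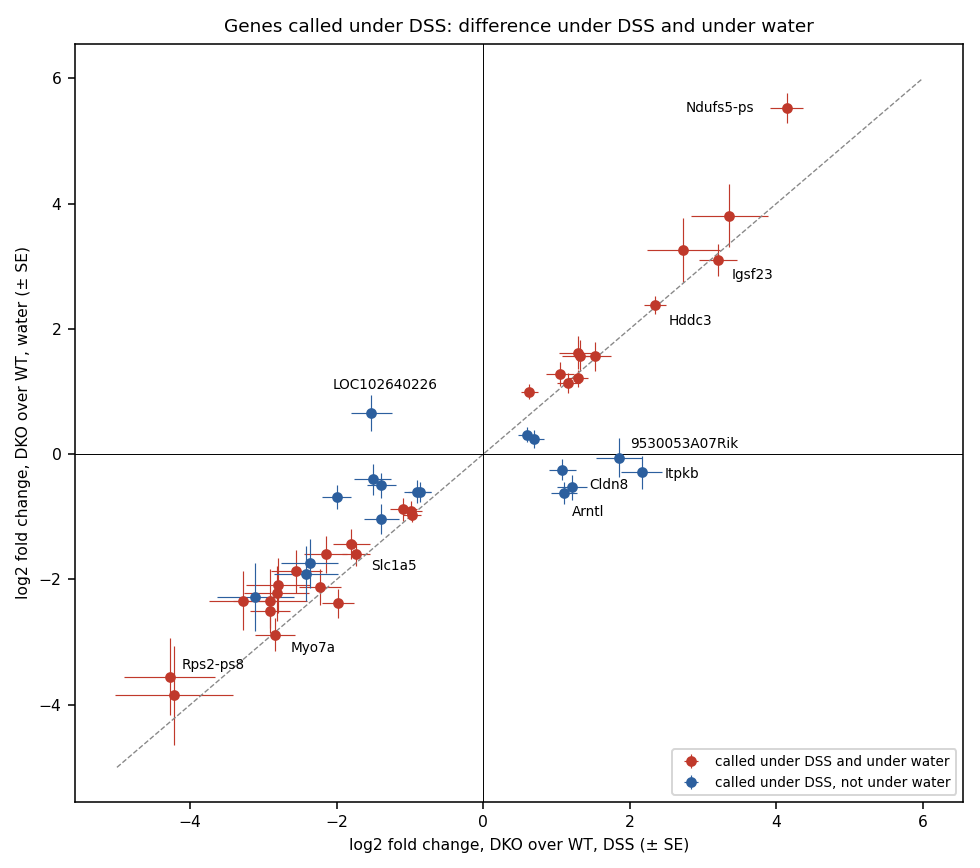
Log2 fold change of DKO over WT under DSS (horizontal axis) and under water (vertical axis) for genes called under DSS, with standard errors as bars and the line of equal change dashed; Tescl and Gm33747, at 0 counts in every WT library under DSS, are left out. Red points were called in both drinking conditions and blue points under DSS and not under water; Itpkb (2.16 under DSS, -0.29 under water), Cldn8 (1.21 and -0.53) and Arntl (1.10 and -0.62) lie off the line.

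Itpkb, Cldn8 and Arntl were higher in DKO under DSS and were not called under water. Itpkb, a kinase that phosphorylates inositol trisphosphate and so shapes calcium signalling, measured 19.1, 26.4 and 22.4 CPM in DKO and 3.65, 8.04 and 3.29 CPM in WT under DSS (log2 fold change 2.16 ± 0.28, edgeR adjusted p = 0.00109). Under water it measured 13.7, 21 and 21.4 CPM in DKO and 21.6, 26.1 and 20.9 CPM in WT, and the interaction was 2.45 ± 0.38 (edgeR adjusted p = 0.0328). The 3 WT libraries under DSS were thus the low ones, since LAO1KO libraries under DSS held 26.9, 25.4 and 26.1 CPM. Cldn8, a barrier-forming claudin of the distal colon, measured 27.6, 20.3 and 22.3 CPM in DKO and 10.7, 12 and 7.46 CPM in WT under DSS (log2 fold change 1.21 ± 0.20, edgeR adjusted p = 0.00913). Under water it measured 27.6, 36.3 and 33.3 CPM in DKO and 43, 49.9 and 47.6 CPM in WT, with DKO the lower group, and the interaction was 1.74 ± 0.28 (edgeR adjusted p = 0.0328). LAO1KO libraries under DSS held 26.6, 14.5 and 21.9 CPM of Cldn8, above every WT library (DKO over LAO1KO, log2 fold change 0.16 ± 0.2). Cldn8 lost its DSS call without DKO library A (edgeR adjusted p = 0.0753) or WT library C (0.0671). It was the only called gene among 27 tested claudins and tight junction genes, whose median log2 fold change was -0.08. The members of that list with the highest levels, Epcam (edgeR adjusted p = 0.656) and Cldn7 (0.611), did not pass.

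Of the clock genes, Arntl and Nfil3 were called. Arntl, which encodes the clock activator BMAL1, measured 23, 18.2 and 17.9 CPM in DKO and 8.91, 10 and 8.64 CPM in WT under DSS (log2 fold change 1.10 ± 0.18, edgeR adjusted p = 0.00897). Under water it measured 26, 26.4 and 28.3 CPM in DKO and 36, 51.9 and 36.4 CPM in WT, and the interaction was 1.72 ± 0.25 (edgeR adjusted p = 0.0328). Arntl was thus separated in both conditions, with DKO the higher group under DSS and the lower group under water. Nfil3, a repressor that competes with clock output factors such as Dbp for the same DNA sites, measured 6.19, 6.08 and 6.06 CPM in DKO and 2.96, 3.02 and 2.64 CPM in WT under DSS (log2 fold change 1.08 ± 0.18, edgeR adjusted p = 0.0084). Its interaction of 1.33 ± 0.25 missed the threshold (edgeR adjusted p = 0.0515). Arntl was lost under DSS without DKO library A (0.0753), WT library A (0.0527) or WT library C (0.0518), and Nfil3 without WT library A (0.05) or C (0.0634), all edgeR adjusted p-values. The 7 tested clock activators and night-phase genes had a median log2 fold change of 0.29, with 4 above and 3 below 0. Arntl and Nfil3 were the only called members. Of the others, Cdkn1a, a cell cycle inhibitor, overlapped at 177, 122 and 150 CPM in DKO and 173, 168 and 157 CPM in WT (edgeR adjusted p = 0.896).

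Genes that peak together with Dbp, opposite to Arntl in the daily cycle, lay mostly below WT in DKO without any call. Of 16 tested, 14 had a negative log2 fold change, with a median of -0.44, and 8 were lower without overlap, against 11.6% of all tested genes. The other 2 lay above 0, and under water the list median was 0.2. At an unadjusted p under 0.05 there were 6, DESeq2 called 0 and limma voom 3. The 2 with the highest levels were the repressors Nr1d2, at 89.6, 103 and 125 CPM in DKO and 142, 154 and 178 CPM in WT (edgeR adjusted p = 0.479), and Bhlhe40, at 84.8, 58.2 and 62.7 CPM in DKO and 99.5, 111 and 72.6 CPM in WT (0.407). Dbp itself, named here after its values were seen, measured 50.2, 49.2 and 55.1 CPM in DKO and 107, 113 and 131 CPM in WT (log2 fold change -1.18 ± 0.36, edgeR adjusted p = 0.321). Dbp and Arntl both lie on chromosome 7, with starts 0.869 Mb and 68.3 Mb from that of Il4i1. For these 2 genes the Il4i1 allele and chromosome 7 DNA inherited with it cannot be told apart. Under DSS the genotypes did not overlap in Dbp or Nr1d2. Nr1d1 (log2 fold change -0.02), Per1 (0.14) and Per2 (-0.23), also named after their values were seen, did overlap. Under water Dbp was the other way, at 22.1, 29.4 and 29.4 CPM in DKO and 9.86, 6.02 and 13.6 CPM in WT (edgeR adjusted p = 0.0902). In LAO1KO under DSS, Arntl averaged 13.6 ± 1.66 CPM and Nfil3 5.08 ± 0.719 CPM (SD, n = 3), between DKO and WT in both. The hour of collection is not given, and the part of time of day in these differences was not tested.

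The promoters of Arntl and Nfil3 are shown because both genes were called higher in DKO than in WT under DSS. Both hold AGTAGGTCA, a form of the DNA element bound by REV-ERB nuclear receptors. The motif was searched on both strands, as AGTAGGTCA or TGACCTACT, in windows of 300 bases around listed starts of RefSeq genes in GRCm38.p6. It was in 63 of 32851 windows (0.192%), and in the windows of 26 of 13584 tested genes (0.191%). Among the 28 called genes with a window, Arntl and Nfil3 were the 2 that held it. Only this form of the element was searched, and it was searched with the called genes already known. The counts are therefore no test of enrichment. The sites are given with 10 bases on either side and the motif in capitals, at chr7:113207529-113207557 on the plus strand for Arntl and chr13:52981033-52981061 on the minus strand for Nfil3. Both sites lie inside their gene, which spans 113178471 to 113314126 for Arntl and 52967209 to 52982878 for Nfil3. The windows that hold them are therefore not at the outer start of either gene.
Arntl: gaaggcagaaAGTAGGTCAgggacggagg
Nfil3: cgctcggaacTGACCTACTaacacacatc
A match of letters is a description of the sequence and no evidence of binding.

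The mitochondrial mRNAs as a group lay below WT under DSS and above it under water. All 13 had a negative log2 fold change under DSS, with a median of -1.15, and 12 were lower without overlap, against 11.6% of all tested genes. None was called by edgeR, where the smallest adjusted p was 0.104 and 12 had an unadjusted p under 0.05, while DESeq2 called 6 lower and limma voom 3. COX1, the catalytic subunit of cytochrome oxidase, measured 52100, 95800 and 78000 CPM in DKO and 133000, 113000 and 312000 CPM in WT (edgeR adjusted p = 0.318). CYTB, of complex III, measured 16000, 27900 and 23100 CPM in DKO and 36300, 32200 and 79000 CPM in WT (edgeR adjusted p = 0.342). In LAO1KO under DSS COX1 averaged 79300 ± 16800 CPM and CYTB 21200 ± 3550 CPM (SD, n = 3), near the DKO values. WT library C held the highest value of both genes, and without it the median of the 13 was -0.6. Under water the median log2 fold change was 1.12 in the other direction. The share of all counts averaged 19.5 ± 4.78% in DKO and 32.7 ± 10.6% in WT under DSS (SD, n = 3 each, 2-sided exact permutation p = 0.1, the smallest possible). Nuclear subunits of the respiratory chain had a median of -0.3, and 29 of 42 were lower without overlap, against 11.6% of all tested genes, although Atp5b (edgeR adjusted p = 0.987) and Atp5a1 (0.834), the members with the highest levels, overlapped. Nearly the whole list lay below 0, at 40 of 42.

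Interferon-stimulated genes lay below WT in DKO under DSS across the list, and none passed edgeR's test. All 39 tested genes of the type I interferon response had a negative log2 fold change, with a median of -0.64, and 22 were lower without overlap, against 11.6% of all tested genes. At an unadjusted p under 0.05 there were 10, and DESeq2 called 1 lower and limma voom 4. Irf7, the transcription factor that amplifies interferon production, measured 140, 115 and 121 CPM in DKO and 185, 227 and 227 CPM in WT (log2 fold change -0.77 ± 0.27, edgeR adjusted p = 0.413). Ifi27l2b, an interferon-induced gene, measured 150, 156 and 148 CPM in DKO and 189, 210 and 214 CPM in WT (log2 fold change -0.43 ± 0.19, edgeR adjusted p = 0.48). Both were separated without overlap. In LAO1KO under DSS Irf7 averaged 137 ± 26.5 CPM and Ifi27l2b 148 ± 9.47 CPM (SD, n = 3), near the DKO values. Of 26 genes of MHC class I and the immunoproteasome, which present peptides to T cells, 25 lay below 0, with a median of -0.41 and 14 lower without overlap, again against 11.6%. Of these 26, 10 had an unadjusted p under 0.05, and edgeR and DESeq2 called 0 and limma voom 1 lower. Among them H2-K1 measured 829, 847 and 871 CPM in DKO and 1060, 941 and 1360 CPM in WT (edgeR adjusted p = 0.478), and H2-D1 measured 669, 664 and 655 CPM in DKO and 811, 707 and 909 CPM in WT (0.517). LAO1KO means under DSS lay between those of DKO and WT, at 923 ± 58.5 CPM for H2-K1 and 737 ± 21.7 CPM for H2-D1 (SD, n = 3). Under water the medians were -0.31 for the interferon list and 0.45 for the MHC class I list. Macrophage and dendritic cell markers, a possible source of such transcripts, summed to 185 to 203 CPM in DKO and 201 to 226 CPM in WT, and T and NK cell markers to 30.2 to 55.2 CPM in DKO and 37 to 43.7 CPM in WT, and their part in these lists was not tested.

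Genes of mucus-secreting goblet cells leaned the other way. Of 34 tested, 25 lay above 0, with a median log2 fold change of 0.31, and 12 were higher without overlap, against 9.83% of all tested genes. Sytl2, which tethers secretory granules through Rab27, was the single called member, at 63.2, 68 and 67.4 CPM in DKO and 48.1, 45.7 and 37 CPM in WT (log2 fold change 0.60 ± 0.12, edgeR adjusted p = 0.044). It lies 45.5 Mb from Il4i1 on chromosome 7 and was lost in each of the 6 fits without a DSS library (edgeR adjusted p 0.0527 to 0.265). Muc2, the main gel-forming mucin of the colon, measured 5230, 3720 and 3920 CPM in DKO and 3520, 3390 and 1810 CPM in WT (edgeR adjusted p = 0.475). The membrane mucin Muc3 went the other way, at 2160, 1610 and 1750 CPM in DKO and 2270, 2180 and 2870 CPM in WT (edgeR adjusted p = 0.521). For both mucins the value of WT library C was the one farthest from DKO. The DSS median of the goblet list was 0.22 to 0.47 without 1 library, the highest without WT library A, and DESeq2 called 3 members higher and limma voom 4. Under water the median was -0.3.

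Enteroendocrine markers, the hormone-producing cells of the epithelium, had 17 of 20 members above 0 with a median of 0.24 and no call by edgeR (4 at an unadjusted p under 0.05) or DESeq2, and 2 higher by limma voom. That median was 0.38 without DKO library A, 0.14 without DKO library B and 0.12 without WT library A. Chga, a granin stored with hormones in secretory granules, measured 134, 144 and 149 CPM in DKO and 98.7, 97.6 and 93.1 CPM in WT (log2 fold change 0.56 ± 0.17, edgeR adjusted p = 0.306). Chgb, a second granin, measured 172, 163 and 166 CPM in DKO and 105, 117 and 103 CPM in WT (log2 fold change 0.62 ± 0.19, edgeR adjusted p = 0.32). Both were higher in every DKO library than in any WT library. Under water the list median was 0.39. Enteric neuron and glia markers had 20 of 21 members above 0, with a median of 0.3 and none at an unadjusted p under 0.05. The median was 0.53 without DKO library A, 0.08 without DKO library B and 0.19 without WT library A, and the list's sum ranged from 345 to 676 CPM in sum in DKO and from 360 to 489 CPM in WT.

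**Figure D5:**
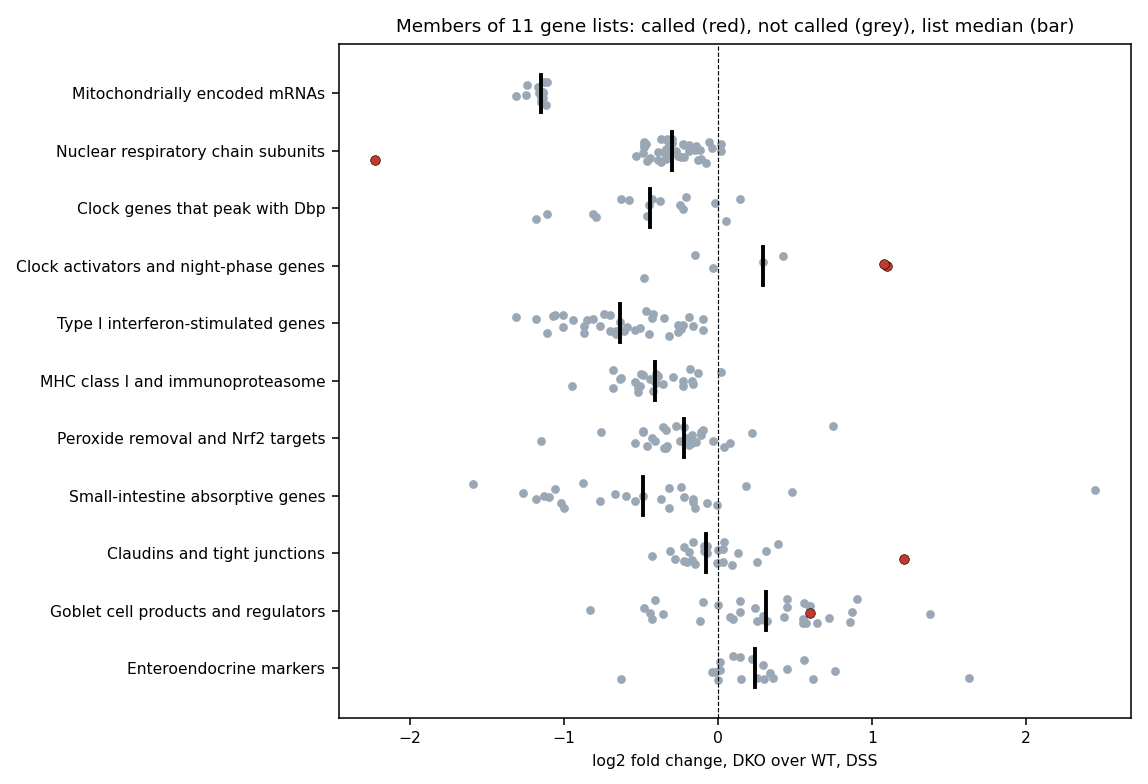
Log2 fold change of DKO over WT under DSS (horizontal axis) of every tested member of 11 gene lists (rows); red points were called, grey points were not, and the black bar is the list median. Medians run from -1.15 for the mitochondrially encoded mRNAs to 0.31 for goblet cell genes, and the red points are Ndufs5, Arntl, Nfil3, Cldn8 and Sytl2.

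Lists tied to what the 2 oxidases make or use showed few calls. Among 15 tested amino acid and amine oxidases edgeR and DESeq2 called none, limma voom called 1 higher and 1 lower, and 3 had an unadjusted p under 0.05. Maoa, a mitochondrial monoamine oxidase, measured 771, 763 and 910 CPM in DKO and 1130, 854 and 1500 CPM in WT (edgeR adjusted p = 0.427), and Aoc1, which degrades histamine and other diamines, measured 489, 549 and 560 CPM in DKO and 583, 431 and 853 CPM in WT (0.85). The 31 tested genes of peroxide removal and the Nrf2 response included no call by edgeR or DESeq2 and 2 lower by limma voom, with 7 at an unadjusted p under 0.05. Their median was -0.22, with 13 lower without overlap, against 11.6% of all tested genes, and 1 higher, against 9.83%. Of these Txn1, encoding thioredoxin, measured 590, 470 and 489 CPM in DKO and 750, 694 and 690 CPM in WT (edgeR adjusted p = 0.653), and Prdx1, a peroxiredoxin, overlapped (0.674). None of 13 targets of the aryl hydrocarbon receptor, which tryptophan products activate, was called by edgeR, DESeq2 or limma voom, or had an unadjusted p under 0.05. Their median of 0.24 was 0.01 without DKO library A, 0.13 without DKO library C or WT library C, and 0.16 to 0.21 without each of the others. None of 19 cytosolic aminoacyl-tRNA synthetases was called or had an unadjusted p under 0.05, with a median of 0.02. No edgeR call was made among 29 cytokines and chemokines (median -0.05), 20 NF-kappa-B feedback genes (0.03) and 24 chaperones of the endoplasmic reticulum (0.04), where 1, 2 and 2 genes had an unadjusted p under 0.05. DESeq2 called none of these, and limma voom called 3 of the cytokines and chemokines lower. At this depth and spread, a list without a call is not shown to be equal between the genotypes.

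Of the 51 gene lists, calls fell in 6, namely the clock activators, the respiratory chain, tyrosine breakdown, the amino acid response, the claudins and the goblet cell genes, and the remaining 45 held none by edgeR. Lists whose median shrank without WT library C included, beside the mitochondrial mRNAs, red cell and small-intestine genes. Red cell markers had a median of -1.04 over 9 tested genes, and -0.33 without that library, with Hbb-bs at 14.2, 40.2 and 32.9 CPM in DKO and 35.6, 43.1 and 144 CPM in WT. Absorptive genes typical of the small intestine had a median of -0.49 over 27 tested genes and -0.07 without it, where 1 member was called higher. Antimicrobial and epithelial defence genes had a median of -0.22 over 26 tested genes, -0.03 without WT library C and -0.01 without WT library A. Cell cycle and replication genes had a median of 0.05 over 34 genes, which was -0.11 without WT library C and 0.31 without WT library A.

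The remaining called genes were of lower level or of smaller change. Tescl, a tescalcin-like gene on chromosome 7, had 14, 25 and 28 counts in DKO and 0 in each WT library, so it was at least 4.95-fold higher in DKO when each WT library is set at 3 counts. It had no count in the LAO1KO libraries under DSS either. The long non-coding RNA Gm33747 had 11, 9 and 7 counts in DKO and 0 in each WT library, at least 1.99-fold higher, yet it was present in WT libraries under water at 0.261 ± 0.0537 CPM (SD, n = 3). Gm29891, a non-coding RNA 1.7 Mb from Lao1, averaged 3.03 ± 0.554 CPM in DKO and 0.28 ± 0.226 CPM in WT (edgeR adjusted p = 0.00458). Others were called under DSS and not under water. The Fcgbp-like gene 9530053A07Rik, which is 86.2% identical to Fcgbp over 74.4% of its length, averaged 10.7 ± 2.28 CPM in DKO and 2.96 ± 0.56 CPM in WT under DSS, against 2.38 ± 0.44 CPM in DKO and 2.5 ± 0.667 CPM in WT under water. LOC102640226 averaged 1.28 ± 0.162 CPM in DKO and 3.73 ± 1.07 CPM in WT under DSS, and its interaction of -2.19 ± 0.40 did not pass (edgeR adjusted p = 0.0515). Tescl was lost without any 1 DSS library, Gm33747 without any but DKO library C, LOC102640226 without any but WT library A, and 9530053A07Rik without DKO library A or WT library B or C (edgeR adjusted p up to 0.193).

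Among the other called genes, Pnmal2, Chst8, Rnps1 and Osbpl1a rose and Zfp111 and Gm45972 fell. Chst8, a sulfotransferase of N-acetylgalactosamine, averaged 9.88 ± 0.593 CPM in DKO and 4.05 ± 0.703 CPM in WT, and Pnmal2, a paraneoplastic antigen-like gene, 33.1 ± 2.58 CPM in DKO and 13.3 ± 0.186 CPM in WT (SD, n = 3 each). Rnps1, a splicing factor of the exon junction complex on chromosome 17, averaged 56.8 ± 6.16 CPM in DKO, 57.8 ± 5.01 CPM in LAO1KO and 35.1 ± 0.931 CPM in WT. Osbpl1a, an oxysterol-binding protein gene, averaged 19.6 ± 1.11 CPM in DKO and 12.7 ± 0.67 CPM in WT, and Zfp111 4.7 ± 0.587 CPM in DKO and 8.74 ± 0.399 CPM in WT. Pnmal2, Chst8, Rnps1, Osbpl1a and Zfp111 were lost without any 1 of the 6 DSS libraries (edgeR adjusted p 0.065 to 0.331), and Gm45972 without DKO library A or B or WT library C (0.0894 to 0.0953). Over the whole comparison 22 of the 48 called genes passed in all 6 fits without a DSS library. They included Slc1a5, Igsf23, Hddc3, Fah, Pcsk5, Mier3, Rhbdl2, Myo7a, Ndufs5, Ndufs5-ps, Ceacam20, Nlrp9b and Itpkb, and all 22 also passed under the 7 other alternatives.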

How the data were processed

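Whole colons were profiled by stranded mRNA sequencing in 18 libraries of 6 groups. The authors deposited 1 table of raw gene counts, per the file headers. The submitters' processing notes name, with the builds GRCm38 and mm10, the aligner HISAT2 (2.1.0), R (4.3.2) with DESeq2 (1.42.1), StringTie (2.1.3b), Trimmomatic (0.38) and FastQC (0.11.7). How multiply mapped or antisense reads were counted is not given in the sources used here, so close copies and overlapping genes are uncertain. Of the gene symbols, 11 had become dates.

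Counts were filtered with filterByExpr, scaled by TMM and fitted with edgeR 4.0.16 (R 4.3.3; robust quasi-likelihood) over all 18 libraries, with 1 mean per group and 12 residual degrees of freedom. An adjusted p under 0.05 was called, and standard errors were derived from the F statistic. Exact permutation tests over 20 arrangements served single values. DESeq2 1.42.0, limma 3.58.1 with voom, other scaling, filters, sample sets and a replicate block, and each library left out, were alternatives. The DKO to LAO1KO comparison was added after the data were seen. Statistics were tested on simulated data. Sequences came from GENCODE and RefSeq, both on GRCm38.

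The comparison, members and 51 gene lists were chosen with earlier results of these data known. Named were up to 15 called genes each way by size, with a proper symbol, no overlap and at least 1 CPM in the higher group; called list members and the 2 with the highest levels per list that is described gene by gene; called genes within 1 Mb of Lao1 or Il4i1; and up to 5 interaction genes with a proper symbol each way. Called gene models, pseudogenes and Tescl fall outside this rule and were named after their values were seen. Libraries held 26003174 to 36553193 counts. One member of the clock list and one sequence are not reported here.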

Additional observations from a re-analysis of the deposited data

Results flagged for a closer look

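The interaction test called 11 genes, of which 9 met the naming rule, and found for these that the DKO to WT difference under DSS departed from that under water, by edgeR's quasi-likelihood test with Benjamini-Hochberg adjustment. Higher in DKO under DSS relative to water were Npy4r by 3.16 on the log2 scale, Itpkb by 2.45, Cldn8 by 1.74, Arntl by 1.72 and Hr by 1.22. Npy4r, a receptor of pancreatic polypeptide, averaged 1.85 ± 0.285 CPM in DKO and 1.16 ± 0.642 CPM in WT under DSS, and 0.994 ± 0.151 CPM in DKO and 5.72 ± 2.65 CPM in WT under water (SD, n = 3 each). Hr, a nuclear receptor co-repressor, averaged 27.2 ± 3.85 CPM in DKO and 17.1 ± 0.435 CPM in WT under DSS, and 29.7 ± 2.19 CPM in DKO and 43.6 ± 9.54 CPM in WT under water.

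In the other direction were Mt2 at -2.31, B2m at -1.36, Trim12a at -1.22 and Trim12c at -1.1. Mt2, a metallothionein that binds zinc and copper, averaged 434 ± 28.8 CPM in DKO and 720 ± 292 CPM in WT under DSS, and 319 ± 78.7 CPM in DKO and 107 ± 21.2 CPM in WT under water. B2m, the light chain of MHC class I, averaged 672 ± 112 CPM in DKO and 953 ± 38.6 CPM in WT under DSS, and 921 ± 113 CPM in DKO and 509 ± 85.1 CPM in WT under water. Trim12a averaged 49.4 ± 5.94 CPM in DKO and 68.4 ± 7.3 CPM in WT under DSS, and 54 ± 12.3 CPM in DKO and 32.1 ± 4.11 CPM in WT under water. Its paralog Trim12c averaged 39.1 ± 0.886 CPM in DKO and 57 ± 3.32 CPM in WT under DSS, and 44.9 ± 8.37 CPM in DKO and 30.6 ± 0.818 CPM in WT under water, and reads may be shared between the 2. The other called genes, outside the naming rule, were Fer1l6 (1.22) and LOC115488509 (-1.95).

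Each of the 9 kept its direction in all 12 fits without 1 library. Each passed in only 2 or 3 of them, those without WT library B under DSS, WT library C under water and, for all but Npy4r and Hr, DKO library B under water. The highest edgeR adjusted p over these fits was 0.116 for Npy4r, Itpkb, Cldn8 and Arntl, 0.143 for Hr, 0.125 for Mt2 and B2m, 0.162 for Trim12a and 0.129 for Trim12c.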

How the results depend on the processing

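The 48 calls between DKO and WT under DSS (21 higher, 27 lower in DKO) were 149 (61 and 88) with DESeq2, 459 (164 and 295) with limma voom, 66 with the compared groups alone (42 lower), 29 (10 higher) without WT library C and mitochondrial mRNAs, an alternative chosen after the data were seen, and 24 to 40 (10 to 14 higher, 14 to 26 lower) without 1 library. The 117 calls under water were 783, 213 and 32 with DESeq2, voom and the compared groups alone, and 30 to 387 without 1 library. The 11 interaction calls were 492, 235 and 6 in the same order, 0 without WT library C and mitochondrial mRNAs, and 0 to 148 without 1 library. The 12 calls between DKO and LAO1KO were 32 with DESeq2, 2530 with voom and 6 to 12 without 1 library. The 30 calls shared between DSS and water were 51, 59 and 17 with DESeq2, voom and the compared groups alone, and 18 to 32 without 1 library. Fewer samples enter each fit without a library; the cause of the other shifts was not tested.

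With a replicate block the calls were 46 under DSS, 178 under water and 35 for the interaction. Same-letter DKO and WT libraries under DSS had correlations of deviations of 0.0671, -0.15 and 0.136. Those of different letters ran from -0.17 to 0.134. With 3 libraries a group, such values cannot show whether a letter stands for paired animals or a shared batch, and the labels do not say.

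No called gene changed direction in any alternative. Among uncalled genes named in the text, the log2 fold change of Atp5b (0.02) was -0.1 with voom, -0.15 to 0.14 without 1 library (lowest without DKO library A) and -0.09 without WT library C, also with mitochondrial mRNAs taken out. That of Aoc1 (-0.22) was -0.42 to 0.09 without 1 library, the highest without WT library C, also with mitochondrial mRNAs taken out. With 3 libraries a group, no exact test of a single value could go below 0.1, and genes of few counts, such as Il4i1 and Lao1, are limited by depth.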
